A study of Rattus norvegicus with 6 samples.

Results

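The genes described here are the 5 that encode the chains of the fibrillar collagens I, III and V in rat subchondral bone: Col1a1, Col1a2, Col3a1, Col5a1 and Col5a2. They were chosen by name, and each name had 1 row among the 30600 rows with values in the deposited table. The series addresses cold, arthritis and the rat knee, and sequenced RNA of bone from under the joint cartilage in 6 libraries called S10, S12, S13, S20, S21 and S23. Each label gives the tissue but not a temperature, treatment, age or strain, so groups could not be formed and an effect of cold was not tested. The labels also do not say whether each library is from its own animal. Values are therefore given library by library, and a spread over libraries describes these libraries only.

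Fibrillar collagens are rods of 3 chains wound into a triple helix, secreted as procollagens and laid down as fibrils. Type I collagen, built from a pair of alpha 1 chains and a single alpha 2 chain, is the main protein of bone matrix and is made by osteoblasts. Type III collagen is a trimer of a single kind of chain and is known from loose connective tissue, vessel walls, marrow stroma and healing wounds, while type V collagen, commonly a pair of alpha 1 chains with an alpha 2 chain, sits inside fibrils and helps set how they start and how wide they grow.

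Total counts ran from 39990624 to 59200981 per library. The 5 collagen genes together took 0.152% of all counts in S10, 0.188% in S21, 0.204% in S23, 0.205% in S13, 0.248% in S20 and 0.348% in S12. The 95% exact binomial (Clopper-Pearson) interval of the lowest share was 0.150% to 0.153% and that of the highest 0.346% to 0.349%, which covers counting error only. FPKM, the deposited unit, scales fragments by transcript length and library size. The 8 osteoblast markers all had medians over the libraries of at least 1 FPKM. Of 22050 named genes with values, 11625 reached that median too, so this is a weak check of the tissue label. It cannot tell this bone from other bone or marrow. S10 stood apart in the deposited values: 60.1% of the 11625 named genes whose median reached 1 FPKM, called expressed genes below, were lowest there. In bulk tissue, fewer cells of a type and less RNA per cell cannot be told apart.

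The order of the 5 genes was the same in all 6 libraries: Col1a1 was highest, followed by Col1a2, Col3a1, Col5a2 and Col5a1. FPKM is a level per transcript length, which allows a rough comparison between genes. A trend with transcript length that differed between libraries remained in these values, and the level of Col1a2 is uncertain, as described below. Col1a1 (ENSRNOG00000003897), the alpha 1 chain of type I collagen, had 166 FPKM in S10, 183 in S23, 192 in S21, 212 in S13, 249 in S20 and 362 in S12. It ranked between 189th and 420th among expressed genes by FPKM, counted from the highest. Col1a2 (ENSRNOG00000011292), the alpha 2 chain, had 82.3 FPKM in S10, 106 in S23, 108 in S21, 122 in S13, 147 in S20 and 202 in S12. The libraries thus came in the same order for both type I genes, and S12 was the highest for each.

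Col3a1 (ENSRNOG00000003357), the only chain of type III collagen, had 7.59 FPKM in S10, 12.6 in S13, 15.4 in S20, 16.3 in S21, 24.6 in S12 and 48.1 in S23. S23 was the highest library here, whereas it was the second lowest for both type I genes. Col5a2 (ENSRNOG00000003736), the alpha 2 chain of type V collagen, had 3.98 FPKM in S10, 6.85 in S21, 8.20 in S13, 9.09 in S23, 12.2 in S20 and 15.0 in S12. Col5a1 (ENSRNOG00000008749), its alpha 1 chain, had 0.779 FPKM in S10 from 191 counts, 1.84 in S21, 2.16 in S13, 3.47 in S23, 4.10 in S20 and 5.19 in S12. Although the order held within each library, the ranges of Col1a1 and Col1a2 overlapped, as did those of Col3a1 and Col5a2 and those of Col5a2 and Col5a1. The range of Col1a2 lay wholly above that of Col3a1.

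**Figure D1:**
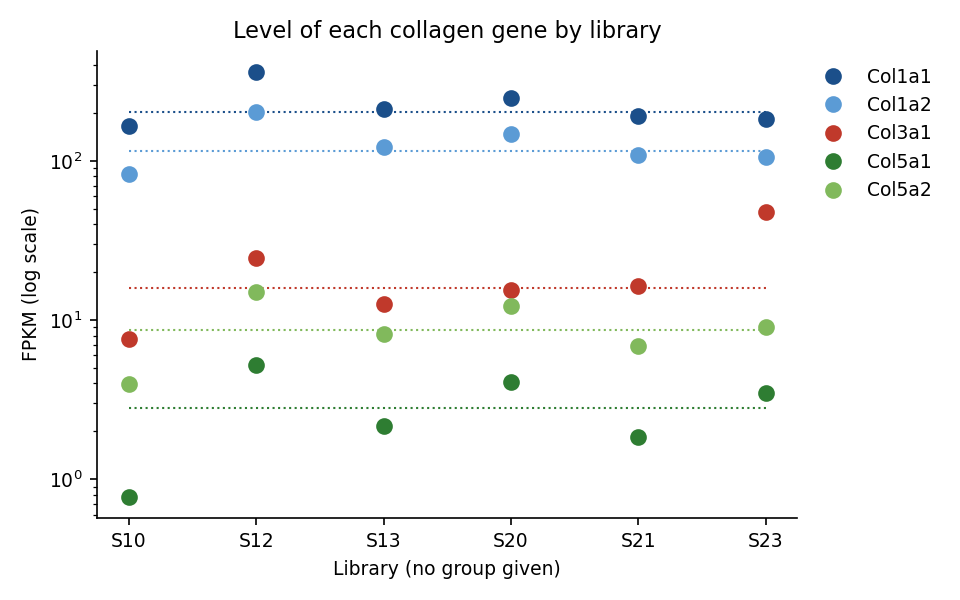
FPKM (log axis) of the 5 collagen genes in each of the 6 libraries, with 1 point per gene and library and a dotted line at each gene's median. The 5 genes keep their order in every library, all 5 are lowest in S10, and Col3a1 alone is highest in S23, at 48.1 FPKM.

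The ratio of the chains within a library does not depend on how libraries are scaled against each other. The Col1a1 to Col1a2 ratio of FPKM was 1.70 in S20, 1.73 in S23, 1.74 in S13, 1.77 in S21, 1.79 in S12 and 2.01 in S10. In 5 libraries the ratio therefore stayed between 1.70 and 1.79, and S10 stood above them: its counting interval of 1.98 to 2.05 did not overlap any of the others, the highest of which, in S12, ended at 1.81. The median was 1.76, and the SD of the log2 ratio over the 6 libraries was 0.09, with a range of 0.25 that shrank to 0.08 without S10. Counts not divided by length gave a median ratio of 2.29, since the Col1a1 transcript behind the FPKM values is 1.30 times as long as that of Col1a2.

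A row named NEWGENE_621351 (ENSRNOG00000052925), which the tables used here tie to no gene symbol, was picked out after its values were seen. It had 53.3 FPKM in S10, 69.9 in S23, 80.4 in S21, 86.0 in S13, 93.4 in S20 and 143 in S12, the same library order as the type I genes. Its counts were 58.6% to 68.5% of those of Col1a2, and its implied length was 0.92 times that of Col1a2. Whether this row shares reads with Col1a2 was not tested. Adding its FPKM to that of Col1a2 would bring the median ratio of Col1a1 to the sum down to 1.04, with 1.02 in S21 and 1.22 in S10, so S10 was again the highest library. The level of Col1a2, and with it the chain ratio, is uncertain for this reason.

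Among all expressed genes, Col1a2 was one of the closest followers of Col1a1. Likeness was measured as the SD over the 6 libraries of the log2 ratio of a gene's FPKM to that of Col1a1, which is small for a gene that keeps a steady proportion. Col1a2, at 0.09, ranked 8th of 11587 genes, against a median of 0.44 over these genes. Ahead of it were AABR07006049.2, Rragd (a small GTPase of nutrient sensing), MGC94199, AABR07063281.1, Ccdc80 (a secreted matrix protein), Cdh11 (cadherin 11, the osteoblast cadherin) and Srpx, with SDs from 0.06 to 0.09. All 7 were expressed far lower than either type I gene, the highest being Ccdc80 at 9.36 to 18.1 FPKM, and Col1a2 ranked 2nd among the genes whose median reached 10 FPKM. The rank of Col1a2 was 1 without S10 and 165 without S12, the library where both genes were highest. It was 16 by Pearson correlation of log2 levels. Correction for transcript length, which treats the 2 genes differently because Col1a1 falls among the longest 5% of expressed genes and Col1a2 does not, raised the SD of Col1a2 to 0.23 and its rank to 353. Of the 7 genes ahead of it, Ccdc80 (rank 8) and Cdh11 (rank 54) stayed near after that correction, and the other 5, all with shorter transcripts than Col1a2, moved to ranks from 4750 to 9773.

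The other members followed Col1a1 far less closely. Col5a2 had an SD of 0.39 (rank 4435), Col5a1 one of 0.73 (rank 10198) and Col3a1 one of 0.89 (rank 10977). Without S23 the rank of Col3a1 was 3252, and without S10 those of Col5a1 and Col5a2 were 6369 and 451. Col5a2 moved to rank 7261 without S12 and to 7817 after length correction. By Pearson correlation, which ignores how much a gene varies, Col5a2 ranked 658th, Col5a1 1573rd and Col3a1 7551st. How near the type V chains stood to type I collagen thus depended on the measure and on single libraries, while Col3a1 ranked lowest of the 4 by both measures and moved nearer without S23.

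**Figure D2:**
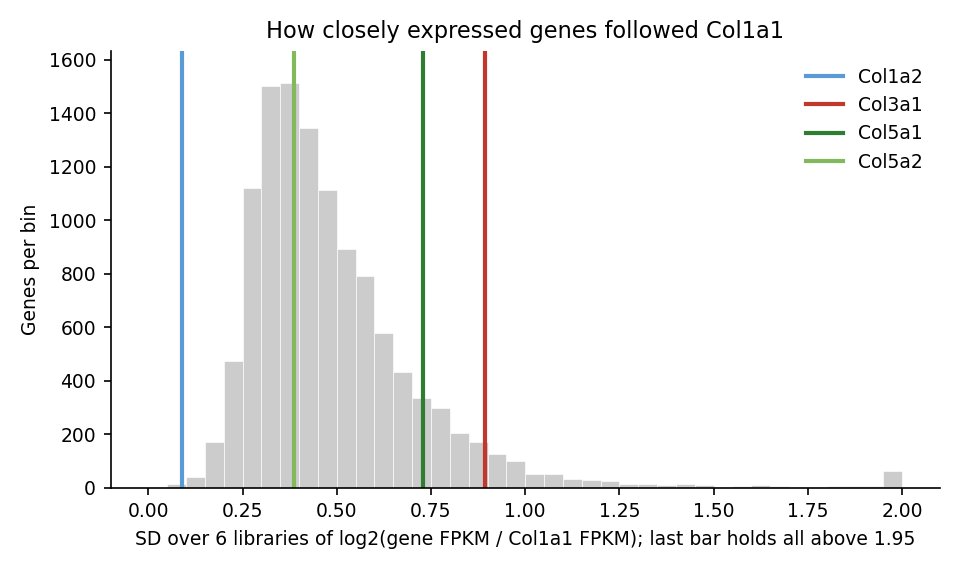
Number of expressed genes (vertical axis) by the SD over 6 libraries of their log2 ratio to Col1a1 (horizontal axis, log2 units), with a coloured line for each of the other 4 collagen genes. Col1a2 lies at 0.09 on the far left of the distribution, Col5a2 at 0.39 near its middle, and Col5a1 (0.73) and Col3a1 (0.89) in its right tail.

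In the deposited values the type V chains kept a looser proportion than the type I chains, a gap that shrank after length correction. The Col5a1 to Col5a2 ratio of FPKM was 0.196 in S10, 0.264 in S13, 0.269 in S21, 0.336 in S20, 0.345 in S12 and 0.381 in S23. The counting interval in S10, 0.166 to 0.230, lay below those of the other 5 libraries, and the interval in S23, 0.353 to 0.411, overlapped those of S12 and S20 but not those of S13 and S21. The SD of the log2 ratio was 0.35 and its range 0.96, or 0.53 without S10. After length correction the SD was 0.32, against 0.23 for the type I pair. The median ratio was 0.302, so transcripts of the alpha 1 chain were the scarcer of the type V pair, the reverse of the type I pair. In likeness to Col5a1, Col5a2 ranked 490th of 11587 genes, and in likeness to Col5a2, Col5a1 ranked 2251st.

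For comparison, 2 further collagen pairs that assemble together were set beside these, a choice made after the values were seen. The network collagen pair Col4a1 to Col4a2 had a ratio of 1.79 to 6.002 (SD of log2 0.68) and the beaded filament pair Col6a1 to Col6a2 one of 0.470 to 1.10 (SD 0.46). Each had its extreme in S10, as the type I and type V pairs did, and of the 4 pairs the type I pair varied least in the deposited values. The third type V chain, Col5a3, was present at 1.499 to 3.94 FPKM, lowest in S10 and highest in S23. Its ratio to Col5a1 ran from 0.630 in S20 to 1.93 in S10.

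**Figure D3:**
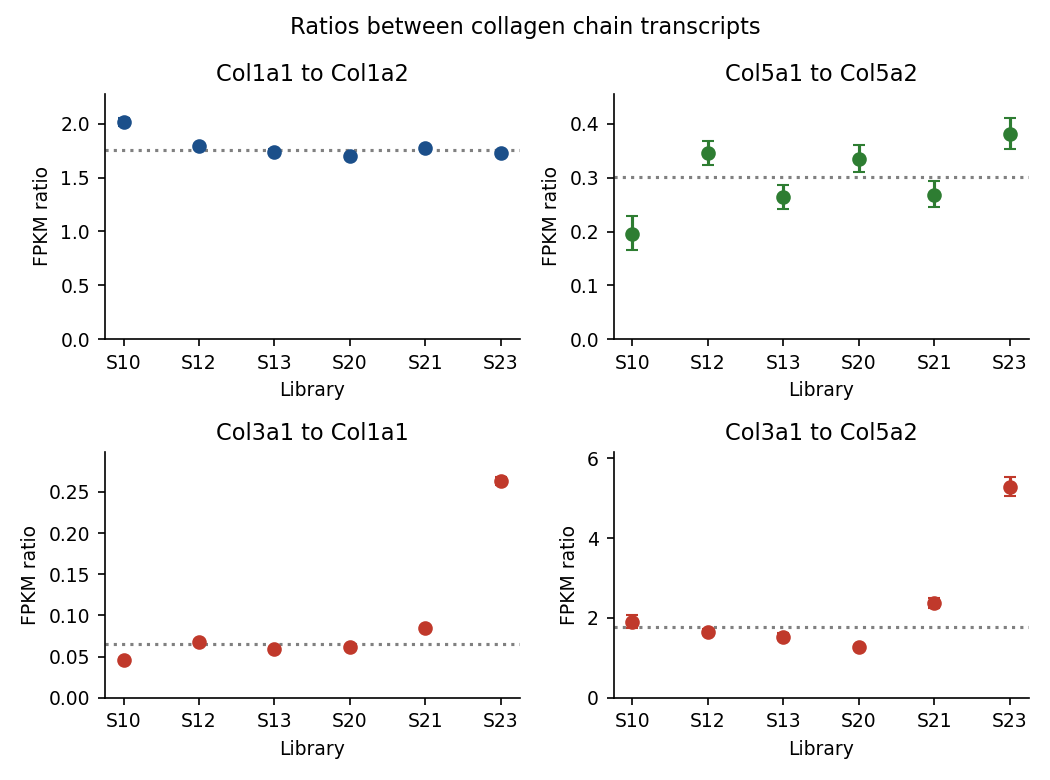
Ratio of FPKM between 2 chains in each of the 6 libraries for 4 pairs, on linear axes from 0, with 95% exact binomial intervals (counting error only, often smaller than the point) and a dotted line at the median. The type I pair stays between 1.70 and 2.01, the type V pair runs from 0.196 to 0.381, and both ratios of Col3a1 are highest in S23.

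Type V was a minor partner of type I throughout. Col5a1 stood at 0.470% of the Col1a1 level in S10, 0.962% in S21, 1.02% in S13, 1.43% in S12, 1.64% in S20 and 1.90% in S23. Col5a2 stood at 4.83% of the Col1a2 level in S10 and 8.60% in S23, with a median ratio of 0.0709. S10 was lowest and S23 highest for both comparisons, so the mix of fibrillar transcripts differed between libraries in type V as well as in type III. For Col5a2 to Col1a2, S23 was not set apart from S20. Its counting interval of 0.0822 to 0.0899 overlapped the 0.0798 to 0.0867 of S20.

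Promoter sequences of RefSeq (assembly GRCr8) were available for 3 of the 5 members, Col1a2, Col5a1 and Col5a2, and the 250 bases before each annotated start were searched. The letters CCAAT (as CCAAT or, on the other strand, ATTGG), a box known in collagen I promoters, were found in 34.0% of 33469 promoters, and TATAAA (or TTTATA) in 12.9%. Col1a2 had 1 match to each, ATTGG beginning at position -221 and TATAAA at position -170 from the annotated start, and 4.58% of promoters held both. Col5a1 and Col5a2 had neither. The 2 stretches below are from different windows, -250 to -151 for Col1a2, which holds both matches, and -100 to -1 for Col5a2. A link between these letters and the chain ratios was not tested. Each is 100 bases, 5′ to 3′ on the gene's strand, with matches in capitals, and the second, which ends at the annotated start, has none. Coordinates are those of GRCr8, not of the build behind the counts.
Col1a2, chr4:33518307-33518406, plus strand: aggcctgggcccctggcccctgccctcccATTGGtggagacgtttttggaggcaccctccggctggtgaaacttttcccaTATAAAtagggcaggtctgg
Col5a2, chr9:55090152-55090251, minus strand: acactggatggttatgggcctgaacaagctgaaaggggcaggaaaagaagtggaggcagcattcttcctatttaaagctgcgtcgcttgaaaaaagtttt
The GC content of the 250 bases was 58.4% for Col1a2, 71.6% for Col5a1 and 44.8% for Col5a2, which was higher than in 71.1%, 93.6% and 26.5% of all promoters in that order, so the type V genes lay on either side of Col1a2. These matches are descriptions of letters and not of sites in use.

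Type III collagen departed most from type I in 1 library, S23, and the ratio also differed among the others. The Col3a1 to Col1a1 ratio was 0.0458 in S10, 0.0593 in S13, 0.0617 in S20, 0.0680 in S12, 0.0850 in S21 and 0.263 in S23. S23 was 3.10 times the next highest library, and its counting interval of 0.258 to 0.269 was far from that of S21, 0.0826 to 0.0875. Col3a1 made up 13.8% of the summed FPKM of the 5 genes in S23 and 2.91% to 5.01% elsewhere. The log2 ratio had a range of 2.52, and 0.89 without S23.

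The gene next to Col3a1 in the genome did not share this. Col3a1 and Col5a2 are neighbours on chromosome 9 of GRCr8, with 0 annotated genes between them. Their ratio was 1.26 in S20, 1.53 in S13, 1.64 in S12, 1.91 in S10, 2.38 in S21 and 5.29 in S23. Here too S23 stood above all others. The SD of the log2 ratio was 0.73, against 0.30 between Col5a2 and Col1a2, which lie on different chromosomes. Both ratios were highest in S23, and without it their highest values were 1.89 and 1.72 times their lowest, in that order. From Col1a1 and Col1a2 to Col3a1 the SDs were 0.89 and 0.86. An effect of position in the genome was not tested.

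Few genes exceeded Col1a1 in S23 as much as Col3a1 did. The measure, chosen after the values were seen, was a gene's ratio to Col1a1 in S23 divided by the highest such ratio in the other libraries. It was at least 2 for 51 of 11625 genes (0.439%), and Col3a1 was the only member among them, at rank 10. Col5a1 reached 1.16, Col5a2 1.02 and Col1a2 0.984. Above Col3a1 were Postn at 6.80 (periostin, a matrix protein of periosteum and healing tissue that binds collagen), Gal at 10.2 (the neuropeptide galanin), Retn (resistin) at 4.50, the monocyte chemokine Ccl2 at 4.16, the chemokine Ccl9 at 4.10, the proteases Prss29 and Prss34, and 2 rows with clone names. Relative to Col1a2 the rank of Col3a1 was 11. In the deposited FPKM, without any division by collagen, S23 held 1.95 times the next highest level of Col3a1, which ranked 27th, and under TMM scaling 2.16 times, which ranked 12th.

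**Figure D4:**
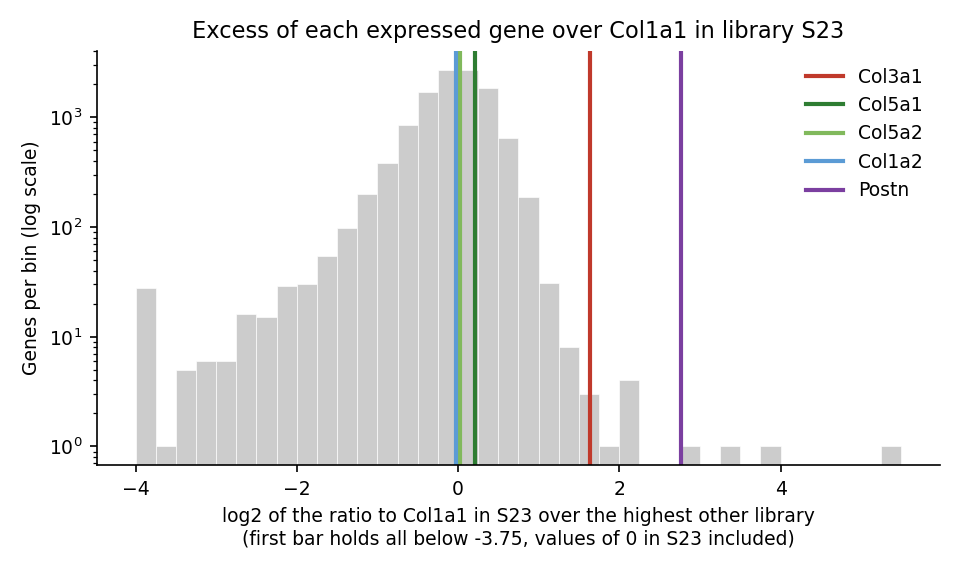
Number of expressed genes (vertical log axis) by the log2 of their ratio to Col1a1 in S23 over the highest such ratio in the other 5 libraries. Col1a2, Col5a1 and Col5a2 lie near 0, in the bulk of genes, while Col3a1 (3.10-fold) and Postn (6.80-fold) lie in the sparse right tail.

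Postn is in the list of fibril regulators but not among its 4 highest medians, and was followed after its values were seen. It had 2.47 FPKM in S13, 2.50 in S10, 2.77 in S20, 3.63 in S21, 4.76 in S12 and 23.5 in S23. By the same S23 measure the other regulators ran from 0.826 (Ogn) to 1.87 (Thbs2). The 8 genes that kept the steadiest ratio to Col3a1 were Tarm1 (an activating receptor of myeloid cells), Prok2 (prokineticin 2), Igf1r (the receptor of insulin-like growth factor 1), Thbs2 (thrombospondin 2, a matrix glycoprotein that affects fibril shape), the neutrophil chemokine receptor Cxcr2, Fgf12, Impad1 and LOC100909700, with SDs of the log2 ratio from 0.27 to 0.35. None came as close to Col3a1 as Col1a2 came to Col1a1. Thbs2 had 0.906 FPKM in S10, 1.28 in S13, 1.45 in S20, 1.63 in S21, 2.09 in S12 and 2.91 in S23, the library order of Col3a1 itself.

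Markers of other cell types also differed in S23, and their part in the Col3a1 value was not tested. The 8 neutrophil markers summed to 74093 FPKM in S23 and to 17140 to 43722 FPKM in the other libraries. Of the 8, 7 were expressed and all 7 were highest in S23, as were 24.0% of all expressed genes. The erythroid markers summed to 159931 FPKM in S23 against at least 302687 elsewhere. The fibroblast and tendon markers, 8 of 10 of them expressed, summed to 216 FPKM in S23, within the 143 to 223 FPKM of the other libraries. Its members differed: Dcn (55.6 FPKM, against at most 47.3 elsewhere), Lum (97.0 against at most 89.2) and Pi16 were highest in S23, while Thy1, at 32.4 FPKM, was below its median there. The tendon genes Scx and Tnmd were under 1 FPKM in every library. Endothelial and pericyte markers (48.6 FPKM in S23, 34.8 to 56.6 elsewhere) lay within the range of the others too. Relative to Dcn and Lum, which were thus themselves highest in that library, Col3a1 was again highest in S23, at ratios of 0.865 and 0.495 against at most 0.521 and 0.276 in the other libraries.

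S12, the highest library for type I and type V genes, differed in other markers. Of all expressed genes, 26.6% were highest in this library. The skeletal muscle markers summed to 140 FPKM in S12 and 13.2 to 58.3 FPKM elsewhere. Of the 7 with a row, 6 were expressed and all 6 were highest in S12. The 8 adipocyte markers summed to 865 FPKM in S12 against 289 to 685 FPKM. Of the 7 expressed, 6 were highest in S12, while Cfd was highest in S10 (435 FPKM, against 408 in S12). The chondrocyte markers summed to 248 FPKM in S12 against 122 to 203 FPKM, of which Col2a1 alone gave 152 FPKM. Of the 6 expressed, 4 were highest in S12, and Comp (41.3 FPKM in S21, 39.9 in S12) and Cnmd (24.8 and 24.5) were highest in S21. The osteoblast markers, which sum mainly Spp1 and Bglap, had 1345 FPKM in S12, inside the 1119 to 1582 FPKM of the other libraries. Which of these tissues contributed collagen transcripts was not tested.

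The spread of each member over the libraries was read as the range of log2(FPKM + 1). It was 1.12 for Col1a1, 1.29 for Col1a2, 1.69 for Col5a2, 1.80 for Col5a1 and 2.51 for Col3a1. All 5 had a range of at least 1, as did 36.6% of expressed genes, and the median range of expressed genes was 0.83. Col3a1 had a larger range than 98.1% of expressed genes, Col5a1 than 93.1%, Col5a2 than 91.4%, Col1a2 than 79.4% and Col1a1 than 71.1%. All 5 were lowest in S10, where 60.1% of expressed genes were lowest.

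These ranges depended on scaling and on transcript length. In the deposited values the median expressed gene lay 0.31 log2 units below its own median in S10 and 0.14 above it in S12, and TMM scaling (which sets most genes level between libraries) brought both within 0.02 of 0. Under TMM, 3 of 5 members kept a range of at least 1 (Col3a1 2.09, Col5a1 1.44 and Col5a2 1.15), against 29.2% of expressed genes, and the lowest library of Col1a1 (0.84) and Col1a2 (0.78) became S23. All members are long: their implied transcripts are longer than 88.9% to 95.3% of those of expressed genes. The longest 5% of expressed genes had a median deviation of -0.66 in S10, 0.42 in S12 and 0.50 in S20, while the shortest had 0.03, -0.06 and -0.25. After correction for length, 1 of 5 members, Col3a1 at 1.87, kept a range of at least 1, against 19.8% of expressed genes, and Col1a1 (0.62), Col1a2 (0.68), Col5a2 (0.80) and Col5a1 (0.86) did not.

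S12 was the highest library of Col1a1, Col1a2, Col5a1 and Col5a2, and S23 that of Col3a1, in the deposited values, under TMM and after length correction alike. In the deposited values 26.6% of expressed genes were highest in S12 and 24.0% in S23. After length correction Col1a1 in S10 lay 0.29 above its median, where it had been 0.28 below it in the deposited values. The low level of Col1a1 in S10 thus turned in direction with this choice, whereas Col5a1 and Col5a2 were lowest in S10 in all 3.

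**Figure D5:**
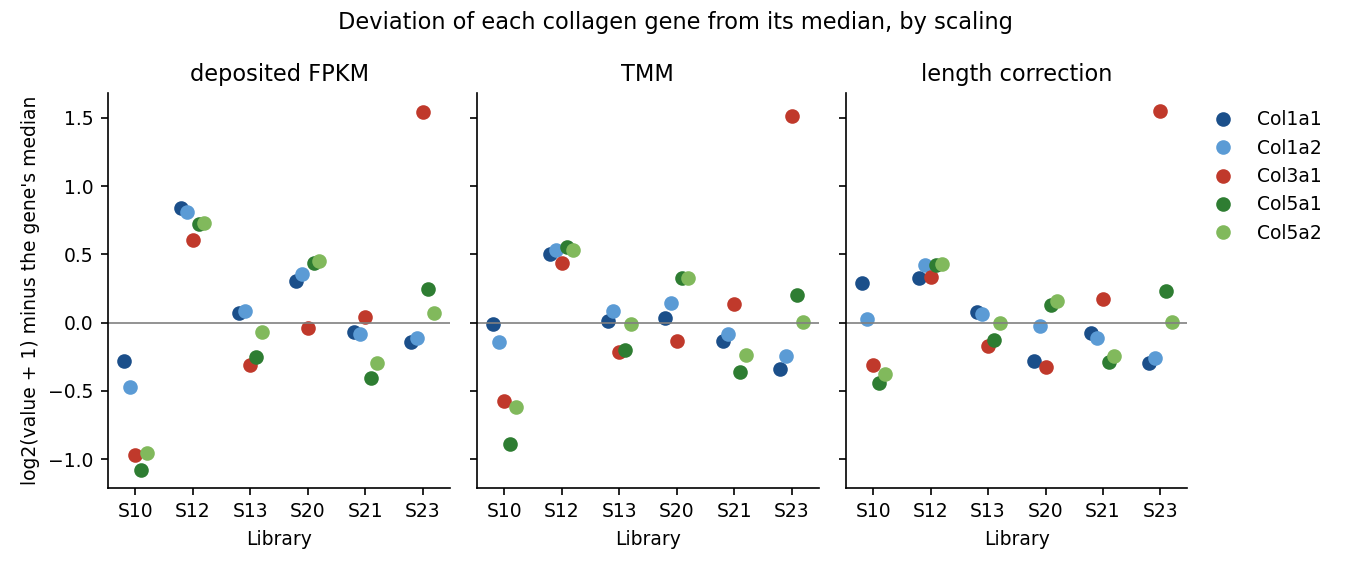
Deviation of each member from its own median over the 6 libraries, in log2(value + 1), for deposited FPKM, TMM scaling and correction for transcript length. Col3a1 in S23 lies about 1.5 log2 units above its median in all 3 panels, while the low values in S10 shrink or change sign for Col1a1 and Col1a2.

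Other collagens of the tissue were compared from lists of related genes, whose counts are to be read against the 36.6% of all expressed genes with a range of at least 1, or 29.2% under TMM. Of 6 other fibrillar collagen genes, 5 were expressed and 2 of these had a range of at least 1 (Col2a1 and Col27a1), with a median range of 0.98, and 0 did under TMM. Col2a1, the collagen of cartilage, had 59.1 to 152 FPKM and stood at 0.356 to 0.654 times the Col1a1 level, highest in S23. Col11a1 (7.52 to 11.0 FPKM) and Col11a2 (10.9 to 18.9 FPKM), chains of type XI collagen that nucleate cartilage fibrils, followed Col1a1 more closely (SDs of the log2 ratio of 0.23 each) than either type V gene did. Among fibril-associated collagens 5 of 9 with a row were expressed and 3 had a range of at least 1, or 0 under TMM. The highest were Col9a3, Col9a2 and Col9a1, chains of type IX collagen of cartilage, with medians of 20.5, 16.6 and 10.5 FPKM, and Col16a1 with 3.07. Of 12 network, beaded and other collagens with a row 9 were expressed and 7 had a range of at least 1, or 4 under TMM, with Col10a1 of hypertrophic cartilage (8.06 to 40.0 FPKM), Col6a2, Col6a1 and Col4a1 as the highest.

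Genes that fold and modify procollagen varied less. None of the 9 expressed genes of prolyl hydroxylation and folding had a range of at least 1 in the deposited values, and their median range was 0.55. Under TMM 1 did, Ppib, a prolyl isomerase of the endoplasmic reticulum. P4hb, the beta subunit of prolyl 4-hydroxylase, had 155 to 273 FPKM, highest in S23. Ppib had 155 to 227 FPKM, the collagen chaperone gene Serpinh1 40.8 to 63.6 FPKM, and P4ha1, the catalytic subunit of prolyl 4-hydroxylase, 7.64 to 12.03 FPKM. Among 9 expressed genes of lysyl hydroxylation and crosslinking 1 had a range of at least 1 (Loxl1, a lysyl oxidase), or 0 under TMM, and the highest were Colgalt1, Plod2, Plod3 and Plod1, with medians of 23.9, 11.4, 7.70 and 4.88 FPKM. Plod2 and Plod1, lysyl hydroxylases, ranked 77th and 109th in likeness to Col1a1, with SDs of 0.16 and 0.17. The median SD of their list was 0.34, against 0.44 over all ranked genes, and Colgalt2 ranked 8497th. The endothelial marker Cdh5, from outside these lists, ranked 73rd. These SDs and ranks are without length correction, which moved many ranks of the genes nearest to Col1a1.

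The secretory and extracellular steps gave a mixed picture. Of 7 expressed genes of export and propeptide removal, 2 had a range of at least 1 (Sec23a and Adamts3), or 1 under TMM (Adamts3). Bmp1, the protease that removes the C-propeptide, had 5.49 to 9.61 FPKM and an SD to Col1a1 of 0.14 (rank 46). The median SD of this list was 0.34, and Adamts3 ranked 11335th. Pcolce, the enhancer of Bmp1, had 16.1 to 21.3 FPKM, and Mia2 and Sec23a of the secretory pathway had medians of 26.7 and 8.87 FPKM. Of 9 fibril regulators, all expressed, 5 had a range of at least 1, but 1 under TMM (Postn). Sparc, a collagen-binding protein of bone, had 410 to 632 FPKM and an SD to Col1a1 of 0.19 (rank 182). The median SD of the regulators was 0.37, and Postn ranked 11437th. The SDs and ranks of Bmp1, Sparc and the others here are likewise without length correction. Lum, Fn1 and Bgn had medians of 80.7, 48.7 and 44.3 FPKM.

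Breakdown genes reached high levels, and collagen receptor genes were mostly low. Of 8 expressed breakdown genes 5 had a range of at least 1, or 3 under TMM, against the 36.6% and 29.2% of all expressed genes, and 5 were highest in S23, against 24.0%. Ctsk, the cathepsin with which osteoclasts cleave collagen, had 220 to 508 FPKM, Mmp13 103 to 179 FPKM, Mmp9 109 to 279 FPKM and the neutrophil collagenase Mmp8 288 to 785 FPKM. Mmp8 is also among the neutrophil markers. Of 9 receptor genes 5 were expressed and 1 of these, Ddr2, had a range of at least 1, or 0 under TMM. The integrin subunit Itgb1 had 36.6 to 67.7 FPKM and the platelet receptor Gp6 12.9 to 20.9 FPKM, and Itga10 and Itga11, subunits of collagen-binding integrins, medians of 1.20 FPKM each.

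In the deposited values Col1a1 did not keep a steady proportion to every osteoblast gene. The ratio of Col1a1 to Bglap (osteocalcin) ran from 0.272 in S10 to 1.07 in S12, with an SD of the log2 ratio of 0.71. The ratio of Col1a1 to Ibsp (bone sialoprotein), also without length correction, ran from 1.02 in S10 to 1.63 in S21 (SD 0.26). Over the 8 osteoblast markers the median SD was 0.45, close to the 0.44 of all ranked genes.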

How the data were processed

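The authors deposited 1 table with a whole-number count and an FPKM value per gene for each of 6 libraries, per the file headers. The counts are whole numbers with totals that differ between libraries, as raw counts do. The FPKM values are the authors' own, per the file headers. Per the labels' protocols, an RNeasy kit gave total RNA and a SMARTER mRNA-Seq kit the libraries. The sources used here do not name the aligner or the counter. The submitters' processing notes list GRCm38 and mm10, which are mouse builds, although the rows carry rat Ensembl IDs, and which build was used could not be settled.

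Of 30610 rows, 10 without values were left out. All 12 value columns were used. Ratios are of deposited FPKM, with counts behind the intervals (95% exact binomial, scipy 1.17.1). Transcript length is that implied by counts and FPKM. Ranges use log2(FPKM + 1) over the 11625 named genes whose median reached 1 FPKM, and likeness the 11587 of them above 0 in every library. Alternatives were TMM factors (edgeR 4.0.16), median-ratio factors, TPM, totals without erythroid markers, correction in 20 length bins, a pseudocount of 0.1, raw counts and leaving out each library. The range and likeness measures were tried on simulated counts that held no trend with transcript length. That trial cannot show how they behave under the length trend of these libraries. No groups were compared.

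Members and lists were chosen with earlier results of these data known. The rule for named genes took the members, up to 4 genes per list with the highest medians, and the 8 genes nearest to Col1a1 and to Col3a1. Other genes (among them NEWGENE_621351, Postn, the genes above Col3a1 in S23, Col4a2, Col5a3, Col27a1, Loxl1, Adamts3, Ddr2, Scx and Tnmd) were named after their values were seen. Of 152 genes in 17 lists, 143 had a row.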

Additional observations from a re-analysis of the deposited data

How the results depend on the processing

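Chain ratios do not change with library scaling, so the choices that moved them were length and single libraries. Ratios of raw counts, not per length, gave medians of 2.29 for Col1a1 to Col1a2 and 0.381 for Col5a1 to Col5a2. Adding the row NEWGENE_621351 to Col1a2, an alternative chosen after seeing the data, gave 1.04. Leaving out each library in turn gave medians of 1.74 to 1.77 for the type I pair, 0.269 to 0.336 for the type V pair and 0.0617 to 0.0680 for Col3a1 to Col1a1, and ranges of the log2 ratio of 0.0769 (without S10) to 0.25, 0.53 (without S10) to 0.96 and 0.89 (without S23) to 2.52. The number of members with a range of at least 1 was 5 in the deposited values, with TPM, without the erythroid markers in the library total and with a pseudocount of 0.1. It was 3 under TMM, 3 under median-ratio factors, 1 after length correction and 3 to 5 when 1 library was left out (3 without S10 and 3 without S12). The cause was not tested. No second row carried the name of any member, so apart from the sum with NEWGENE_621351 no other row was tried. Depth limited Col5a1 most among the members, with 191 counts in S10. No paired analysis was possible because the labels give no groups.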
